A study of Mus musculus with 13 samples.

Results

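The respiratory chain is built from subunits encoded in the nucleus and in the mitochondrial genome. Its members here were the protein-coding genes whose symbols name subunits of complexes I to IV, cytochrome c or the mitochondrially encoded part of the ATP synthase, with assembly factors left out. Of 35906 genes in the files, 82 were members, 69 nuclear and 13 mitochondrial. The rule used gene symbols and no measured value.

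RNA was sequenced from M2 CD4SP thymocytes, sorted as CD69-MHCI+ CD4 single-positive cells, the most mature CD4 stage in the thymus. Each of 13 libraries came from 1 mouse. All mice carried the Lm54 TCR transgene, specific for a listeriolysin O (LLO) peptide on I-Ab, and were Rag1-/-, so that no other TCR was rearranged. CtslΔTEC mice combine a conditional Ctsl allele with a Foxn1-cre transgene, which deletes cathepsin L in thymic epithelial cells and not in the thymocytes measured here. The controls (WT) are labelled Ctsl fl/fl, whereas the study's methods write Ctsl+/+. Unstimulated cells came from 4 WT and 5 CtslΔTEC mice. Cells kept for 4 h with plate-bound LLO:Iab monomer at 1 µg/ml and soluble anti-CD28 at 250 ng/ml came from 2 WT and 2 CtslΔTEC mice. The mice were adults of both sexes on a C57BL/6J background, and the labels give no age for single libraries. In the file names the 4 stimulated libraries share a date that no other library has, and their cells had been cultured, so stimulation, culture and date cannot be told apart.

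Complex I (NADH dehydrogenase) and complex II (succinate dehydrogenase) pass electrons to ubiquinone, complex III (the cytochrome bc1 complex) hands them to cytochrome c, and complex IV (cytochrome c oxidase) passes them to oxygen. The proton gradient that complexes I, III and IV build drives the ATP synthase. Complexes I, III and IV hold subunits of both genomes, complex II is wholly nuclear, and naive T cells that meet antigen are known to enlarge their mitochondrial mass and respiration as they prepare to divide.

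Sequencing depth was 25692380 to 39127833 estimated counts per unstimulated and 8085463 to 27184520 per stimulated library, with stimulated WT mouse 5 the shallowest. The T cell markers were abundant in every group, with summed levels of 2920 to 4110 TPM (the level per transcript length, scaled to the same total in each library). Of 6 epithelial genes, Foxn1, Krt5 and Krt8 had at most 3 counts in each library, and the sum, carried by Epcam, Prss16 and Psmb11, was 3.85 to 7.36 TPM without and 8.02 to 11.8 TPM with stimulation. Between unstimulated genotypes Epcam was higher (0.77 on the log2 scale) and Prss16 lower (-1.12) in CtslΔTEC cells, and with stimulation Epcam rose by 2.75 in WT and 2.18 in CtslΔTEC cells. The 6 erythroid genes summed to 160 to 771 TPM in unstimulated libraries and to 9.67 to 63.1 TPM in stimulated ones. The 6 myeloid genes summed to 5.73 to 15.0 TPM and 5 B cell genes to 0.0771 to 1.79 TPM. The 5 genes of mature M2 cells summed to 1850 to 2140 TPM in unstimulated WT and 1330 to 1490 TPM in unstimulated CtslΔTEC libraries, and 8 genes of the earlier double-positive stage to 45.3 to 67.4 and 200 to 270 TPM. With stimulation the M2 sums were 252 to 371 TPM in WT and 155 to 210 TPM in CtslΔTEC libraries, and the double-positive sums 19.6 to 23.1 and 56.6 to 59.8 TPM. Their part in the results below was not tested, and in bulk RNA fewer cells of a type and less RNA per cell cannot be told apart. Ctsl itself ranged from 6.38 to 8.95 CPM, a count scaled by TMM to library size, in the unstimulated WT libraries. Its range was 11.48 to 18.01 CPM in those of CtslΔTEC thymocytes, which does not check a deletion confined to epithelium.

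Respiratory chain transcripts were a small nuclear and a much larger mitochondrial share of the RNA. In unstimulated WT cells the 69 nuclear members together took 0.808% ± 0.0707 (SD, n = 4) of all TPM and the 13 mitochondrial members 6.12% ± 0.823. In unstimulated CtslΔTEC cells the shares were 0.779% ± 0.0524 (n = 5) and 6.46% ± 0.924. The 2 unstimulated genotypes overlapped in both.

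After stimulation the nuclear share was 1.02% and 0.884% in the 2 WT libraries and 0.903% and 0.922% in the 2 CtslΔTEC libraries. The highest of the 9 unstimulated libraries, WT mouse 4, reached 0.906%. The mitochondrial share was 6.23% and 5.20% in stimulated WT and 5.41% and 4.72% in stimulated CtslΔTEC libraries, against 4.97% to 7.23% without stimulation, so that stimulated and unstimulated libraries overlapped. The ratio of mitochondrial to nuclear TPM was 6.08 and 5.88 in stimulated WT and 5.99 and 5.12 in stimulated CtslΔTEC libraries, and 6.03 to 10.4 in the unstimulated ones. By complex, nuclear complex III genes summed to 1330 to 1510 TPM in unstimulated WT and to 1750 and 2000 TPM in stimulated WT libraries, without overlap. Complex II genes summed to 373 to 398 TPM without and to 401 and 415 TPM with stimulation in WT, and in CtslΔTEC cells to 373 to 412 and to 373 and 393 TPM. These shares are descriptions with no test. The labels name polyA RNA and the study's methods name rRNA depletion, which bears on how mitochondrial transcripts are captured and could not be settled.

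**Figure D1:**
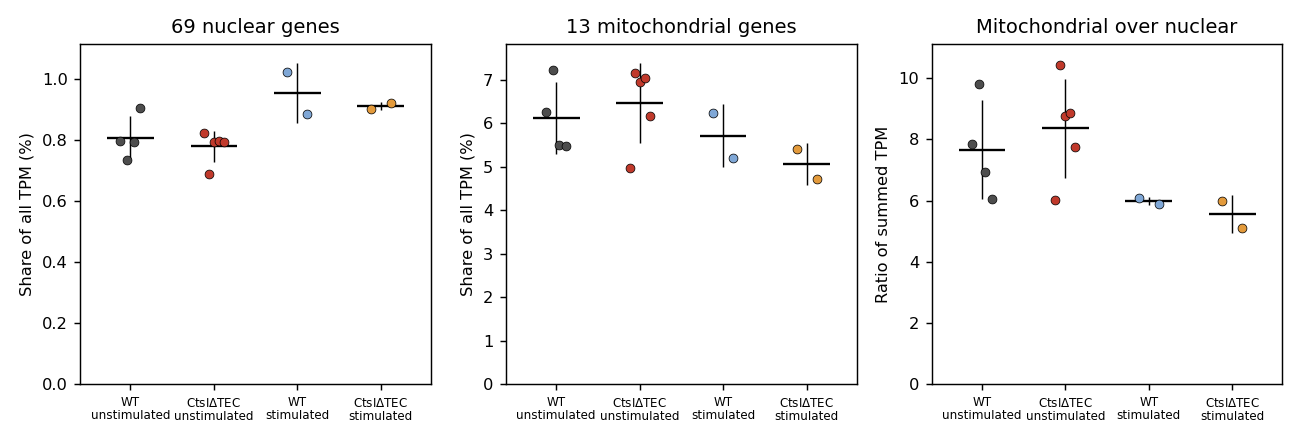
Share of all TPM taken by the 69 nuclear genes (left), by the 13 mitochondrial genes (middle) and the ratio of the summed TPM (right), one point per library, with the group mean (horizontal line) and SD (vertical line). The nuclear share of the unstimulated groups averaged 0.808% and 0.779% and that of the stimulated groups 0.955% and 0.913%. In WT it overlapped, since unstimulated mouse 4 (0.906%) lay above stimulated mouse 6 (0.884%). The mitochondrial shares overlapped between genotypes, without and with stimulation, and between unstimulated and stimulated cells of each genotype.

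Levels per length differed widely among members. In unstimulated WT cells 61 of 69 nuclear members reached 10 TPM, with a median of 104 TPM among these. Cox4i1, the common isoform of the complex IV regulatory subunit 4, led them with 625 ± 75.3 TPM (SD, n = 4). Uqcrh, the complex III hinge protein, followed with 399.7 ± 24.6 TPM and Cox7a2l, a homologue of a complex IV subunit, with 399 ± 42.8 TPM. Uqcrh and Cox7a2l differed by less than their spread. Cycs, the electron carrier cytochrome c, was the lowest of the 61 with 18.3 ± 1.23 TPM.

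The mitochondrial genes were higher. mt-Co1, the catalytic subunit of complex IV, stood at 10150.0 ± 1752 TPM and mt-Nd6, the only one of the 13 on the opposite strand, at 64.4 ± 14.2 TPM. mt-Atp6, a proton channel subunit of the ATP synthase, mt-Co2 and mt-Co3, core subunits of complex IV, followed mt-Co1 with 9454 ± 1286, 9069 ± 1471 and 8268 ± 1575 TPM, and these 4 levels were within about 1 SD of their neighbours. mt-Nd4l overlaps mt-Nd4, and mt-Atp8 overlaps mt-Atp6, so their reads cannot be fully told apart.

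The tissue-restricted paralogues were at or near 0. In complex IV, Cox8b and Cox8c had 0 counts in all 13 libraries, which allows up to 3 counts in each, whereas Cox8a stood at 225 ± 8.19 TPM in unstimulated WT cells. Cox7b2 and Ndufa4l2 had at most 1 count in any library and Cox6a2 at most 4, against 85.3 ± 5.18 TPM for Cox7b, 209 ± 10.4 TPM for Ndufa4 and 284 ± 34.3 TPM for Cox6a1. Cox7a1, the form of heart and skeletal muscle, had at most 11 counts and Cox6b2, the testis form, at most 45, while Cox7a2 and Cox6b1 stood at 104 ± 11.4 and 199.8 ± 11.9 TPM. Cox4i2 was the one such paralogue that moved, and is described with the response. After the filter on low counts 62 nuclear members were tested between the unstimulated genotypes and 63 in the comparisons over all libraries, together with all 13 mitochondrial members.

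What stimulation did to the chain was asked within each genotype. In WT cells 33 of 63 nuclear members rose and 6 fell (edgeR quasi-likelihood test, Benjamini-Hochberg adjusted p below 0.1), beside 32.9% of all 14241 genes tested that rose and 34.8% that fell (67.7% called). In CtslΔTEC cells 40 rose and 11 fell, beside 32.9% and 38.2% of all genes (71.2% called). The median log2 fold change of the nuclear members was 0.36 in WT and 0.38 in CtslΔTEC cells (0.24 with library totals alone), and that of all genes 0.01 and -0.06. In shares, 52.4% and 63.5% of the nuclear members tested rose. The 2 responses share no library, but their spread was estimated in one model of 13 libraries.

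Cytochrome c rose in both genotypes, and no complex III gene of the nucleus fell in either. Cycs (ENSMUSG00000063694, GRCm38 chr6:50562563-50566538) stood at 34.1, 33.5, 30.5 and 33.9 CPM in unstimulated WT and 30.1, 34.7, 38.3, 33.5 and 33.7 CPM in unstimulated CtslΔTEC libraries. It stood at 126 and 95.1 CPM in stimulated WT and 114 and 109 CPM in stimulated CtslΔTEC libraries. Every stimulated library lay above every unstimulated one. On the log2 scale Cycs rose by 1.79 ± 0.11 (SE) in WT (edgeR adjusted p = 2.7e-09) and by 1.77 ± 0.10 in CtslΔTEC cells (adjusted p = 1.06e-09). Between 19.96% and 32.9% of the counts of Cycs and its near-identical copies lay on the copies, which makes its level uncertain, and with the copies added the changes were 1.85 and 1.88. Transcripts annotated as coding held 72.5% to 82.0% of Cycs TPM in unstimulated WT and 58.9% and 69.4% in stimulated WT libraries, and in CtslΔTEC cells 62.4% to 78.2% without and 48.7% and 55.1% with stimulation.

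Uqcrq (ENSMUSG00000044894, chr11:53427922-53430831), a small complex III subunit also known as the ubiquinone-binding protein QP-C, was at 31.6, 31.4, 32.7 and 50.001 CPM in unstimulated WT and 46.4, 27.9, 34.4, 31.7 and 34.6 CPM in unstimulated CtslΔTEC libraries. Stimulated libraries had 116 and 69.7 CPM in WT and 79.0 and 85.7 CPM in CtslΔTEC cells. Stimulated and unstimulated libraries did not overlap, and the log2 rises were 1.39 ± 0.22 and 1.29 ± 0.21 (adjusted p = 6.83e-05 and 7.53e-05). Of the 9 complex III genes 7 rose in WT and 8 in CtslΔTEC cells, and none fell, where 32.9% of all genes rose in each genotype and 34.8% and 38.2% fell. Cyc1, the cytochrome c1 subunit that reduces cytochrome c, rose by 0.93 ± 0.12 and 0.84 ± 0.12. Uqcrc1, a core protein of the matrix side, rose by 0.71 and 0.65, and Uqcrfs1, the Rieske iron-sulfur protein, by 0.62 and 0.49. Uqcr10 was called in neither response (0.35 and 0.16, adjusted p = 0.166 and 0.499).

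Of the 35 nuclear complex I genes 14 rose and 4 fell in WT, beside 32.9% and 34.8% of all genes, and 18 rose and 9 fell in CtslΔTEC cells, beside 32.9% and 38.2%. Of the 7 core genes among them 4 rose and none fell in WT, and 5 rose and 2 fell in CtslΔTEC cells. Ndufs8, an iron-sulfur core subunit, rose by 0.78 ± 0.14 and 0.88 ± 0.13.

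Ndufa12 (ENSMUSG00000020022, chr10:94198720-94221443), an accessory subunit added late to the matrix arm, was at 22.6, 21.2, 21.5 and 23.6 CPM in unstimulated and 65.9 and 44.6 CPM in stimulated WT libraries. In CtslΔTEC cells it was at 22.6, 18.4, 18.8, 22.3 and 23.8 CPM without and 54.6 and 59.0 CPM with stimulation. The 4 stimulated libraries all lay above the 9 others, and the log2 rises were 1.35 ± 0.14 and 1.48 ± 0.13 (adjusted p = 7.21e-07 and 1.07e-07). Ndufb6, an accessory subunit of the membrane arm, rose by 1.34 ± 0.19 and 1.24 ± 0.18 without overlap of the groups. Ndufa5, an accessory subunit of the matrix arm, rose by 1.02 ± 0.19 and 1.44 ± 0.17, but only 24.8% to 37.4% of its TPM lay on transcripts annotated as coding. Ndufb4 rose by 0.49 and 0.86, with 44.6% to 62.3% of the counts of the gene and its copies on the copies.

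Ndufv3 (ENSMUSG00000024038, chr17:31520115-31531331), an accessory subunit of the NADH-oxidizing module, went the other way. It was at 38.1, 34.3, 35.4 and 48.2 CPM in unstimulated and 20.7 and 15.9 CPM in stimulated WT libraries. In CtslΔTEC cells the values were 45.6, 36.7, 34.1, 35.6 and 43.0 CPM without and 12.1 and 11.6 CPM with stimulation. The stimulated libraries lay below all others, with log2 changes of -1.07 ± 0.17 and -1.67 ± 0.17 (adjusted p = 5.45e-05 and 5.33e-07). Ndufb3, Ndufa13 and Ndufa6, further accessory subunits, fell in both genotypes, with log2 changes of -0.60, -0.47 and -0.41 in WT. In CtslΔTEC cells these changes were -0.44, -0.49 and -0.40. There the accessory Ndufa10, Ndufb10 and Ndufb11 and 2 core subunits were also called lower.

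Of the 14 complex IV genes tested, 9 rose and 1 fell in WT (all genes, 32.9% and 34.8%), and 11 rose and 1 fell in CtslΔTEC cells (32.9% and 38.2%). Cox5a, a subunit on the matrix side, rose by 0.85 ± 0.11 and 1.07 ± 0.10, and Cox7c by 0.80 ± 0.20 and 1.01 ± 0.19. The abundant isoforms Cox4i1, Cox6a1, Cox6b1 and Cox7b rose by 0.41, 0.42, 0.38 and 0.57 in WT and by 0.57, 0.40, 0.48 and 0.67 in CtslΔTEC cells. Ndufa4, now counted as a complex IV subunit, rose by 0.41 and 0.52. Cox7a2 was not called in WT (0.23, adjusted p = 0.236) and rose in CtslΔTEC cells (0.36), and Cox8a was called in neither (0.00 and -0.19). Cox6b2 was called in neither, with -1.06 ± 0.59 and -0.86 ± 0.64.

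Cox7a2l (ENSMUSG00000024248, chr17:83501918-83517330) was at 257, 243, 212 and 294 CPM in unstimulated WT and 113 and 108 CPM in stimulated WT libraries. In CtslΔTEC cells it was at 222, 211, 213, 226 and 215 CPM and, after stimulation, 94.5 and 99.7 CPM. The highest stimulated value was below the lowest unstimulated one, and the log2 changes were -1.15 ± 0.11 and -1.11 ± 0.11 (adjusted p = 3.19e-07 and 2.76e-07). Transcripts annotated as coding held at least 98.0% of its TPM in every library.

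Cox4i2 (ENSMUSG00000009876, chr2:152754173-152765037), the isoform of subunit 4 known from lung and from oxygen-sensing cells, had 0, 1, 0 and 2 counts in the unstimulated WT libraries and 0, 1, 0, 1 and 3 in the unstimulated CtslΔTEC libraries. It had 12 and 45 counts in the stimulated WT and 18 and 27 in the stimulated CtslΔTEC libraries. Against a floor of 3 counts per unstimulated library it was at least 16.7-fold higher in stimulated WT and at least 18.2-fold higher in stimulated CtslΔTEC cells. It passed the filter on low counts only through the stimulated libraries, so its call, 1 of the rises counted in each genotype, is no test of it. Per length its level stayed low, at 4.07 and 4.83 TPM in the stimulated WT libraries, where Cox4i1 was at 886 and 675 TPM.

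Complex II, which has no mitochondrial subunit, was split between its 4 genes. Sdha (ENSMUSG00000021577, chr13:74322254-74350280), the flavoprotein that oxidizes succinate, was at 283, 276, 293 and 297 CPM in unstimulated and 203 and 189 CPM in stimulated WT libraries. In CtslΔTEC cells it was at 278, 273, 302, 319.5 and 307 CPM and, with stimulation, 195 and 206 CPM. It fell, without overlap, by 0.50 ± 0.09 and 0.51 ± 0.08 on the log2 scale (adjusted p = 0.000113 and 6.73e-05). Sdhb, the iron-sulfur subunit, rose by 0.66 ± 0.10 and 0.61 ± 0.09, and Sdhc, a membrane anchor, by 0.42 ± 0.10 and 0.26 ± 0.10. Sdhd, the other anchor, was called in neither response (0.19 and -0.13, adjusted p = 0.194 and 0.336).

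**Figure D2:**
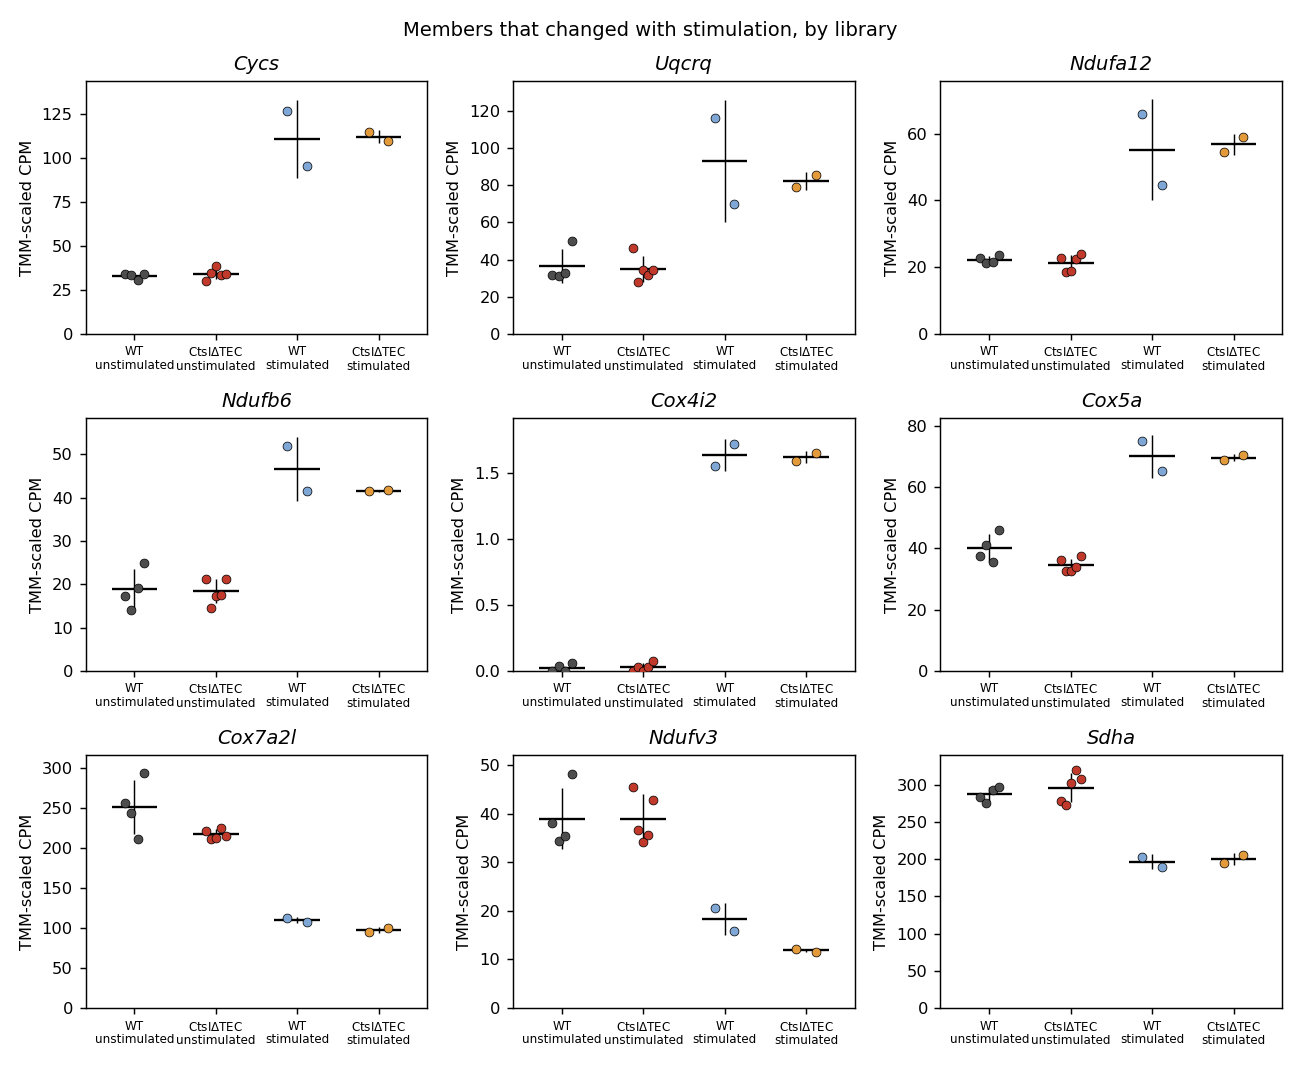
TMM-scaled CPM of 9 nuclear members in each library, with the group mean (horizontal line) and SD (vertical line). In all 9 panels the 4 stimulated libraries lie apart from the 9 unstimulated ones, above them for Cycs, Uqcrq, Ndufa12, Ndufb6, Cox4i2 and Cox5a and below them for Cox7a2l, Ndufv3 and Sdha.

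**Figure D3:**
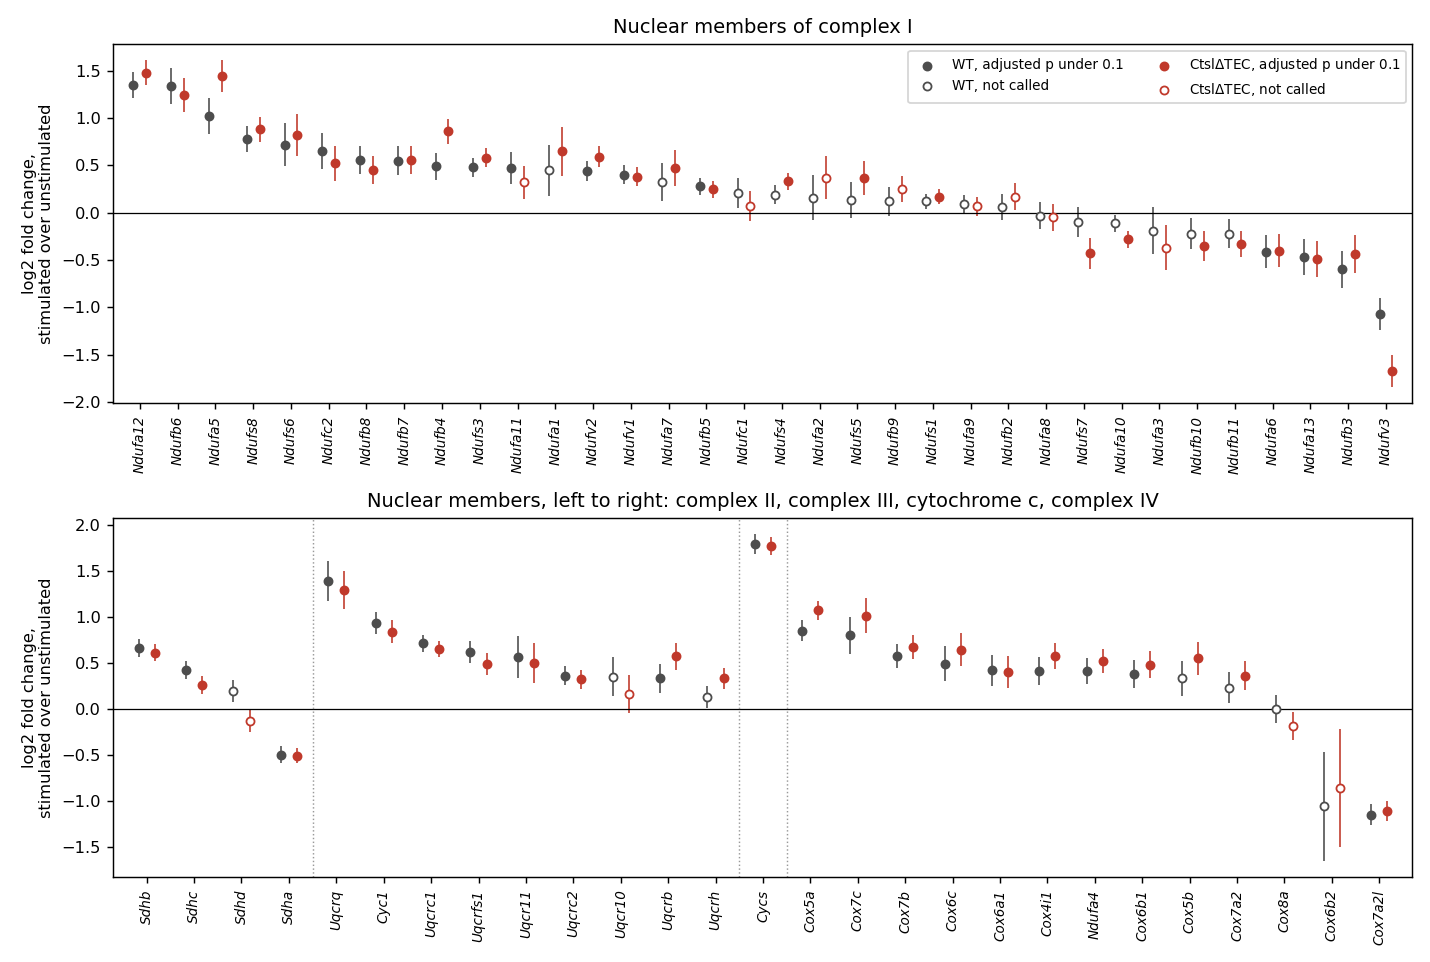
Log2 fold change of stimulated over unstimulated cells with its SE for nuclear members tested, complex I above and complexes II, III, cytochrome c and IV below, in WT (grey) and CtslΔTEC cells (red), with filled points for an adjusted p below 0.1. Cox4i2 is left out because its unstimulated counts were at most 3, and 1 further member is not drawn. All 9 complex III genes lie above 0, whereas complex I runs from Ndufa12 (1.35 and 1.48) to Ndufv3 (-1.07 and -1.67).

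The counts of calls rested in part on single libraries. Without stimulated WT mouse 5, the shallow library, 18 members rose and 10 fell in WT, in place of 35 and 9 over both genomes, and the nuclear median was 0.17. Without stimulated WT mouse 6, 39 rose and 3 fell in WT, and without stimulated CtslΔTEC mouse 6, 32 rose and 11 fell in CtslΔTEC cells, in place of 40 and 17. Cycs, Uqcrq, Ndufa12, Ndufb6, Ndufa5, Cox5a, Cox7c, Ndufs8, Cox7a2l, Ndufv3 and Sdha kept their calls and directions in both genotypes under each of 25 alternatives. The WT calls of Ndufb3, Ndufa13 and Ndufa6 were lost in 1, 3 and 2 of 25, and the CtslΔTEC call of Ndufa13 in 1.

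The promoters of nuclear respiratory genes are known for sites of nuclear respiratory factor 1 (NRF1) and of ETS factors such as GABP. Among RefSeq promoters (GRCm38.p6, 250 bases before to 50 after the start) 54 of the 69 nuclear members had an entry. The NRF1 core GCGCNNGCGC, read on both strands, was in 12 of 54 (22.2%), and in 6.997% of all 27025 genes. The ETS motif CCGGAAG was in 11 (20.4%, against 9.93%), the YY1 motif ATGGCGG in 8 (14.8%, against 4.69%), the cAMP response element TGACGTCA in 5 (9.26%, against 2.03%) and the E-box CACGTG in 2 (3.70%, against 8.09%). Of the 12 members with the NRF1 core 7 rose and 2 fell in WT, of the 11 with the ETS motif 8 rose and none fell, of the 8 with the YY1 motif 3 rose and none fell, and of the 5 with the cAMP response element (Cycs, Ndufa10, Ndufa11, Ndufb2 and Uqcrfs1) 3 rose and none fell. Of the 2 with the E-box 1 rose. Of the 63 nuclear members tested 33 rose and 6 fell, and of all genes 32.9% rose and 34.8% fell. Some members held more than 1 of the motifs. A match is a run of letters and not a measured site.

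The 250 bases upstream of the RefSeq start are shown, on the strand of the gene, for members called in WT whose stretch had at most 30 bases in annotated exons. Of these the 3 with the largest rises and the 1 that fell are given, a choice made after the values were seen, with matches to the 5 motifs in capitals. They lie at chr4:40279422-40279671 (minus strand), chr9:57520982-57521231 (plus), chr19:3912775-3913024 (minus) and chr17:83514334-83514583 (minus). The Cox7a2l stretch precedes the RefSeq start, which lies inside the gene as GENCODE M21 annotates it, downstream of that gene's 5′ end. The capitals mark 1 ETS motif, read from the other strand, in Ndufb6, and the other stretches hold none of the 5. Ndufs8 is 1 of the 11 members counted with the ETS motif, and its match lies outside the stretch shown.
Ndufb6: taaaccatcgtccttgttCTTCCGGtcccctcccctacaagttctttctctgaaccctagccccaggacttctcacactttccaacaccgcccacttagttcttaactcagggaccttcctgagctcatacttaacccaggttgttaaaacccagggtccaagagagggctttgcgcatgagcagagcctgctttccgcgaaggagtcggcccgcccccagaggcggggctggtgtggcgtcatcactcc
Cox5a: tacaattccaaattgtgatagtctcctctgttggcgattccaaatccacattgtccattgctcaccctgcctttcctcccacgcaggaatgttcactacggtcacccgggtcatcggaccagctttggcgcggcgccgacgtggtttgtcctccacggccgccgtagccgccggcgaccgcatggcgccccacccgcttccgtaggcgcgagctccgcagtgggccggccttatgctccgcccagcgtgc
Ndufs8: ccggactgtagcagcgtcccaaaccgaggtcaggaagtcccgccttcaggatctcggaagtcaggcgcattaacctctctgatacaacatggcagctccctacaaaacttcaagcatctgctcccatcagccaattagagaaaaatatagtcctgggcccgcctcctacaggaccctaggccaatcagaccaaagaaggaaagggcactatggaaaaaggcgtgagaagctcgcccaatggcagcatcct
Cox7a2l: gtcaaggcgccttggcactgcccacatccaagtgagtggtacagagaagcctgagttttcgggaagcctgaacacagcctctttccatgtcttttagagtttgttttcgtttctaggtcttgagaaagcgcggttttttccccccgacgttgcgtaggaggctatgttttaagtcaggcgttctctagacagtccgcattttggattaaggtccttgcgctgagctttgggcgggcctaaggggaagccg

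The mitochondrial genome is transcribed from both strands into long precursors that are cut at the tRNAs between the coding genes, so its transcripts start from shared RNAs. The 13 genes did not move together. In WT cells 2 rose and 3 fell, with a median log2 fold change of -0.06, and in CtslΔTEC cells none rose and 6 fell, with a median of -0.46. In shares, 15.4% rose and 23.1% fell in WT, beside 32.9% and 34.8% of all genes, and 46.2% fell in CtslΔTEC cells, beside 38.2%. Without unstimulated CtslΔTEC mouse 5 the CtslΔTEC median was -0.26.

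mt-Nd5 (ENSMUSG00000064367, chrM:11742-13565), a proton-pumping subunit of complex I, was at 1416, 1915, 1381 and 1270.3 CPM in unstimulated and 1233 and 874 CPM in stimulated WT libraries. In CtslΔTEC cells it was at 1169.6, 1702, 1508, 1612 and 1450.0 CPM without and 823 and 617 CPM with stimulation. The 4 stimulated libraries lay below the groups they were compared with, and the changes were -0.46 ± 0.19 and -0.99 ± 0.19 on the log2 scale (adjusted p = 0.0493 and 0.000312).

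mt-Cytb (chrM:14145-15288), cytochrome b of complex III, was at 3472, 4306, 3205 and 3305 CPM in unstimulated and 3132 and 2074 CPM in stimulated WT libraries. It was at 2539, 4094, 3426, 3556 and 3352 CPM and 2153 and 1763 CPM in CtslΔTEC cells without and with stimulation. It fell in both genotypes (-0.41 ± 0.19 and -0.74 ± 0.19, adjusted p = 0.0766 and 0.00301), whereas none of the nuclear genes of the same complex fell. mt-Nd4l, a small complex I subunit, also fell in both (-0.64 ± 0.24 and -1.15 ± 0.24).

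mt-Nd4, a proton-pumping subunit, was called in CtslΔTEC cells alone (-0.82 ± 0.21, adjusted p = 0.00312), with -0.35 ± 0.21 in WT. The same holds for mt-Nd2 (-0.61 and 0.10) and mt-Nd3 (-0.70 and -0.13), and the differences between the genotypes are tested below. Up to 48.4% of the counts of mt-Nd3 and its nuclear copy Gm28438 lay on the copy, and with the copy added the CtslΔTEC change was -0.55 (adjusted p = 0.0607).

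mt-Nd1, the subunit at the ubiquinone site of complex I, was at 1696, 2098, 1651 and 1623 CPM in unstimulated WT and 3002 and 2309.7 CPM in stimulated WT libraries and rose (0.64 ± 0.16, adjusted p = 0.00356). In CtslΔTEC cells its change was 0.27 ± 0.16 (adjusted p = 0.146). mt-Co2, the copper-bearing subunit that takes electrons from cytochrome c, rose in WT by 0.26 ± 0.13 with overlapping groups (adjusted p = 0.0946), and its change in CtslΔTEC cells was 0.01. mt-Co1, mt-Co3, mt-Atp6, mt-Atp8 and mt-Nd6 were called in neither response. Their WT changes were -0.06, 0.16, 0.06, -0.10 and 0.31, and their CtslΔTEC changes -0.17, 0.05, -0.01, 0.14 and -0.46.

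In WT the mt-Nd4l, mt-Nd5 and mt-Cytb calls were lost in 1, 1 and 3 of 25 alternatives. In CtslΔTEC cells the calls of mt-Nd3 and mt-Nd2 were lost in 7 and 1 of 25, and those of mt-Nd4l, mt-Nd5, mt-Nd4 and mt-Cytb held in all 25. The 2 stimulated WT libraries differed, with mt-Nd2 at 1544 CPM in mouse 5 and 816 CPM in mouse 6, and without mouse 6 the median change of the mitochondrial genes in WT was 0.19.

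**Figure D4:**
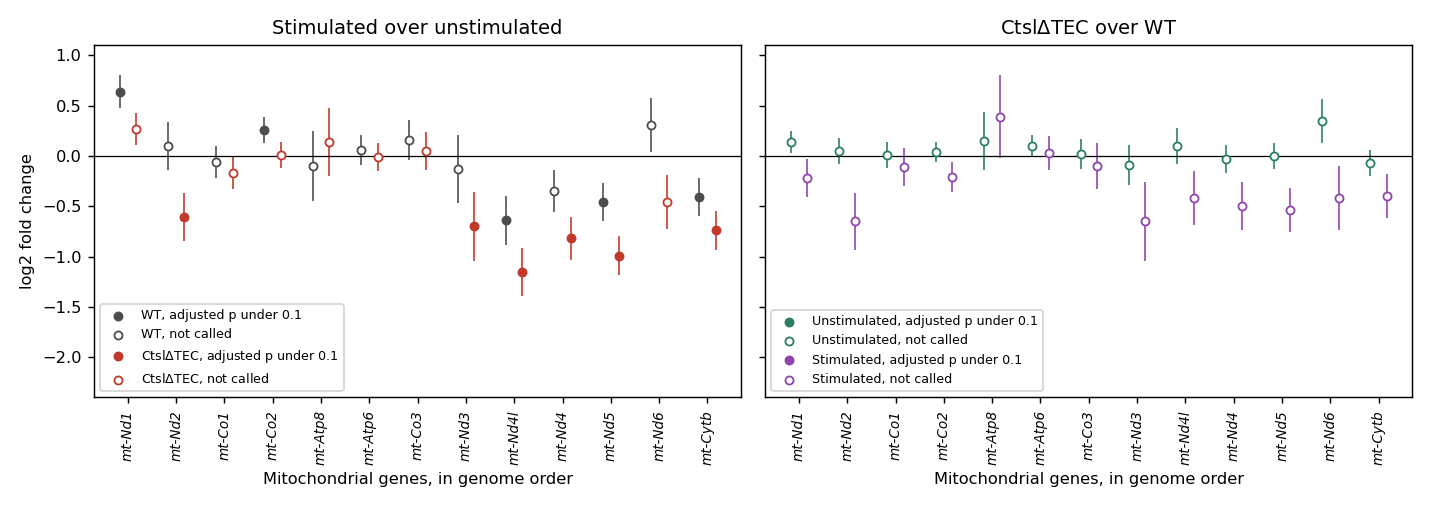
Log2 fold change with its SE of the 13 mitochondrial genes in genome order, for stimulated over unstimulated cells (left, WT grey, CtslΔTEC red) and for CtslΔTEC over WT (right, unstimulated green, stimulated purple), with filled points for an adjusted p below 0.1. On the left the genes from mt-Nd3 to mt-Nd5, and mt-Cytb, lie below 0 in both genotypes and mt-Nd1 above it, and on the right no gene was called.

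Whether cathepsin L in the epithelium that selected the cells bears on their respiratory genes was asked without and with stimulation. Without stimulation none of 75 members passed the test between CtslΔTEC and WT cells, beside 14.8% of 13152 genes tested (6.42% higher and 8.36% lower). The median log2 difference, CtslΔTEC minus WT, was -0.08 for the nuclear and 0.04 for the mitochondrial members, and 0.01 for all genes. The nuclear median was 0.02 without WT mouse 4 and 0.01 with a Y-linked covariate, and the mitochondrial one 0.15 without WT mouse 2, -0.03 without WT mouse 3 and 0.18 with that covariate, so that neither had a stable sign. At an unadjusted p below 0.05 there were 3, Ndufa10, Cox5a and Cox7a2l, all lower in CtslΔTEC cells (-0.15, -0.21 and -0.21, edgeR adjusted p = 0.177, 0.158 and 0.154). DESeq2 also called none. The approximate 95% interval lay within a 1.5-fold difference for 61 of 62 nuclear and 11 of 13 mitochondrial members. The difference was 0.05 ± 0.06 for Sdha, -0.11 ± 0.08 for Sdhb, -0.07 ± 0.07 for Sdhc, -0.04 ± 0.07 for Sdhd, -0.04 ± 0.09 for Cyc1 and 0.05 ± 0.08 for Cycs. Of the mitochondrial genes, mt-Nd6 had the largest, 0.35 ± 0.22.

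With the date of the file names as a factor, 3 members (Uqcrfs1, Cox7a2l and Cox5a, each -0.22) were called lower in unstimulated CtslΔTEC cells. With transcript length as an offset the 3 were Cox5a (-0.27), Uqcrh (-0.22) and Ndufa10 (-0.19). Expression of Y-linked genes nearly went with genotype in the unstimulated libraries. Ddx3y was at 126 to 208 CPM in all 5 unstimulated CtslΔTEC libraries and in WT mouse 3 alone among the unstimulated controls. With a Y-linked covariate no member was called.

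With stimulation 2 of 76 members passed the test, both complex I genes lower in CtslΔTEC cells, beside 13.3% of 14241 genes (2.77% higher and 10.6% lower). Ndufa10 stood at 66.3 and 61.5 CPM in stimulated WT and 50.5 and 50.1 CPM in stimulated CtslΔTEC libraries, a log2 difference of -0.33 ± 0.10 (edgeR adjusted p = 0.0584). Ndufv3 stood at 20.7 and 15.9 and 12.1 and 11.6 CPM, a difference of -0.60 ± 0.20 (adjusted p = 0.076). Each call was lost in 9 of 25 alternatives, and neither passed a threshold of 0.05. With transcript length as an offset the Ndufa10 difference was -0.09 (adjusted p = 0.69). As TPM summed over transcripts its groups overlapped, at 68.2 and 78.9 in stimulated WT and 70.9 and 71.0 in stimulated CtslΔTEC libraries. These sums include retained-intron transcripts, and the coding share was 40.9% and 57.6% in stimulated WT and 37.3% and 38.6% in stimulated CtslΔTEC libraries. The coding transcript did not overlap, at 32.3 TPM or more in stimulated WT and 27.3 TPM or less in stimulated CtslΔTEC libraries. That difference was not tested. The direction of the calls also turned on the setting. Ndufa5 stood at 24.2 and 20.2 CPM in stimulated WT and 33.5 and 32.7 CPM in stimulated CtslΔTEC libraries (0.60 ± 0.22, adjusted p = 0.111). It was called higher under upper-quartile scaling (0.65), under DESeq2 (0.62) and from the stimulated libraries alone (0.65), among others. Ndufb4 (0.40 ± 0.16, adjusted p = 0.145) was called higher under upper-quartile scaling (0.45) and DESeq2 (0.43), among others, and upper-quartile scaling called no member lower.

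The median difference of the mitochondrial genes was -0.40, with 11 of 13 lower and none called in the edgeR test, while that of the nuclear members was -0.08 and that of all genes -0.05. mt-Nd2 differed by -0.65 ± 0.28 (approximate 95% interval -1.20 to -0.10, adjusted p = 0.177) and mt-Nd5 by -0.54 ± 0.22 (-0.97 to -0.11, adjusted p = 0.15). DESeq2 called mt-Nd5 lower (-0.52, adjusted p = 0.0966), and with no count filter edgeR called mt-Nd2 (-0.66, adjusted p = 0.0953) and mt-Nd5 (-0.55, adjusted p = 0.0934). The remaining differences were -0.22 for mt-Nd1, -0.65 for mt-Nd3, -0.50 for mt-Nd4, -0.42 for mt-Nd4l, -0.42 for mt-Nd6 and -0.40 for mt-Cytb. For mt-Co1, mt-Co2 and mt-Co3 they were -0.11, -0.21 and -0.10, and for mt-Atp6 and mt-Atp8 0.03 and 0.39. These values turned on single libraries. The nuclear median was 0.07 without stimulated WT mouse 5 and -0.21 without stimulated WT mouse 6. Without stimulated WT mouse 5 the mitochondrial median was -0.07 and no member was called, without stimulated CtslΔTEC mouse 7 it was -0.21, also with no call, and without stimulated WT mouse 6 there were 10 calls, 5 of them mitochondrial and all 10 lower in CtslΔTEC cells.

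Whether stimulation moved members differently in the 2 genotypes was tested by the interaction, which called none of 76 members, beside 6.01% of all genes (1.13% above and 4.88% below 0). At an unadjusted p below 0.05 there was 1, Ndufv3 (-0.60 ± 0.23, adjusted p = 0.197). It was called without unstimulated WT mouse 4 (-0.71, edgeR adjusted p = 0.0749). Without stimulated WT mouse 6 the interaction of Sdhd was -0.55. The median was -0.01 for nuclear and -0.36 for mitochondrial members, 12 of 13 of the latter being below 0. The nuclear median ran from 0.13 without stimulated WT mouse 5 to -0.11 without WT mouse 6. The mitochondrial median was -0.11 without stimulated WT mouse 5, -0.61 without WT mouse 6, -0.60 without CtslΔTEC mouse 6, -0.21 without CtslΔTEC mouse 7 and -0.56 with the Y-linked covariate. mt-Nd2 had an interaction of -0.71 ± 0.34 (adjusted p = 0.322), which was called with the Y-linked covariate (-1.07, adjusted p = 0.0707) and without stimulated WT mouse 6 (-1.10, adjusted p = 0.0614). mt-Nd3 had one of -0.57 ± 0.47 and mt-Nd4 of -0.48 ± 0.29. The approximate 95% interval lay within a 1.5-fold difference for 37 of 63 nuclear and 2 of 13 mitochondrial members, so for most mitochondrial genes a difference of that size was not resolved with 2 stimulated mice per genotype.

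**Figure D5:**
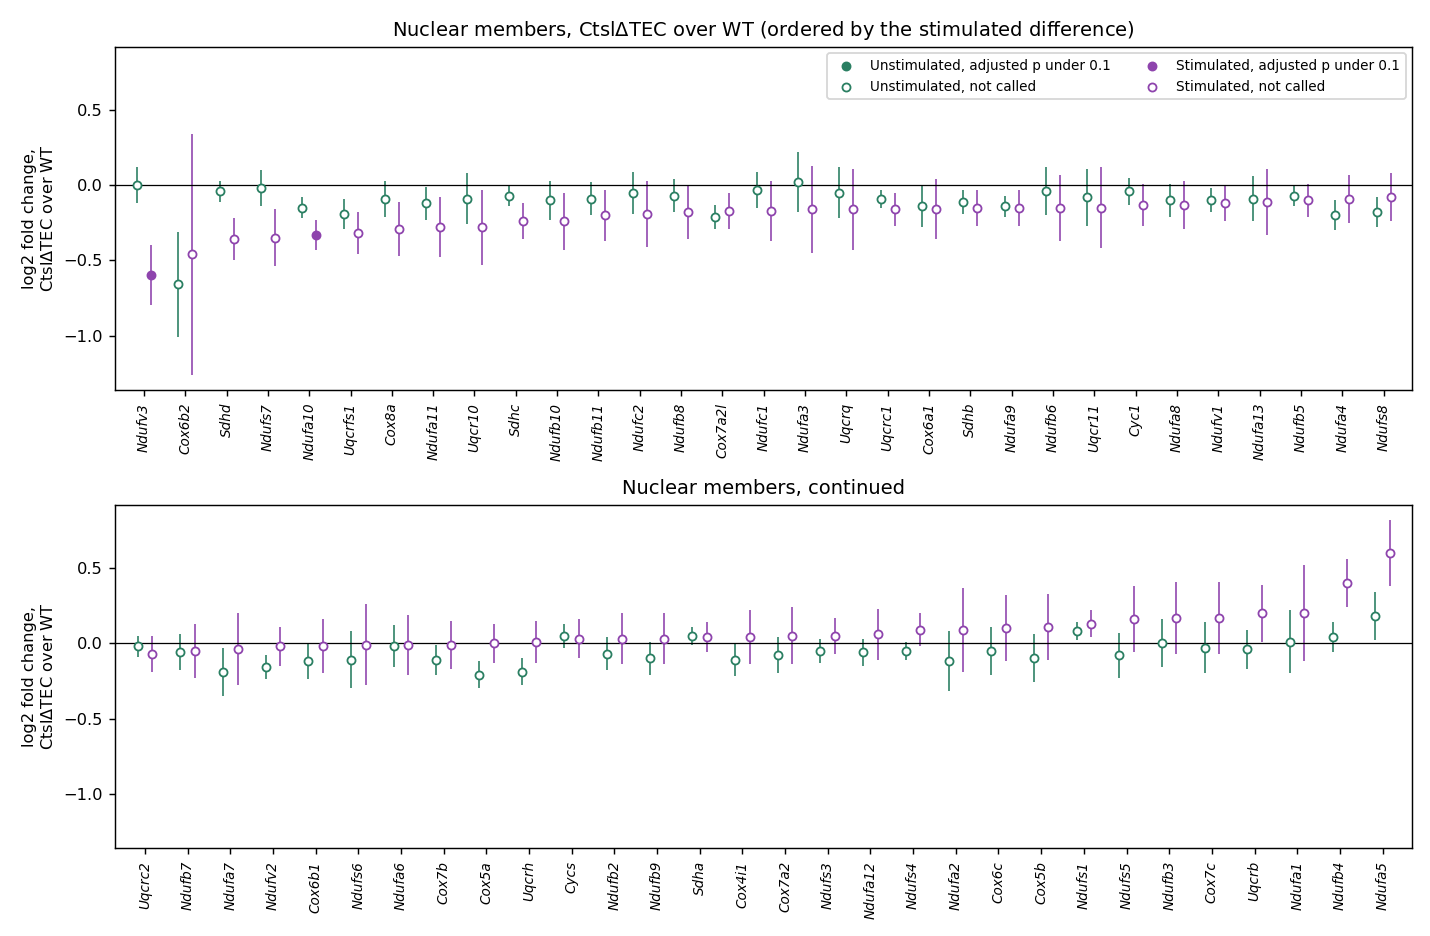
Log2 difference between CtslΔTEC and WT cells with its SE for nuclear members, ordered by the stimulated difference, without (green) and with stimulation (purple). The 2 filled points, Ndufv3 (-0.60) and Ndufa10 (-0.33), are the only members past an adjusted p of 0.1, and Cox4i2 and 1 further member are not drawn.

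Genes that work with the chain were taken from written lists, whose counts stand beside 32.9% of all genes that rose and 34.8% that fell in WT, and 32.9% and 38.2% in CtslΔTEC cells. Of 18 nuclear ATP synthase genes tested, 11 rose and none fell in WT, and 13 rose and 1 fell in CtslΔTEC cells, with medians of 0.47 and 0.51. Atp5g1, which encodes the c subunit of the rotor ring, rose by 1.67 ± 0.13 and 1.83 ± 0.13, and Atp5b, the catalytic beta subunit, by 0.79 and 0.75. Of 42 assembly factors 24 rose and 10 fell in WT, and 20 rose and 12 fell in CtslΔTEC cells. Ndufaf4, an assembly factor of complex I, rose by 2.10 ± 0.13 and 2.30 ± 0.12, Uqcc2, which assists cytochrome b of complex III, by 1.65 and 2.09, and Sco2, a copper chaperone of complex IV, by 1.44 and 1.31.

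Of 24 genes of mitochondrial DNA transcription and RNA handling 16 rose in each genotype, 3 fell in WT and 4 in CtslΔTEC cells, with medians of 0.69 and 0.72. Elac2, which cuts the 3′ ends of tRNAs out of the precursor, rose by 1.51 ± 0.08 and 1.48 ± 0.07, and Supv3l1, the helicase of the mitochondrial RNA degradosome, by 1.85 and 1.87. Tbrg4, an RNA-binding protein of the FASTK family, rose by 1.71 in both. Polrmt, the mitochondrial RNA polymerase, rose by 0.39 and 0.45, while the transcription factor Tfam was called in neither (-0.14 and -0.11, adjusted p = 0.164 and 0.238).

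Of 13 regulators of respiratory genes 5 rose and 4 fell in WT, and 4 rose and 4 fell in CtslΔTEC cells. Pprc1, a coactivator of the PGC-1 family, rose by 2.11 ± 0.13 and 2.49 ± 0.12, and Gabpb1, a subunit of GABP, by 1.05 and 1.26, whereas Gabpa (-0.07 and 0.09) and Nrf1 (0.07 and 0.09) were called in neither. Tfeb, a factor of lysosome genes, fell by 2.21 and 3.11. Of 18 genes of the tricarboxylic acid cycle 9 rose and 3 fell in WT, and 7 rose and 6 fell in CtslΔTEC cells. Idh3a, of the NAD-dependent isocitrate dehydrogenase, rose by 1.32 and 1.39, and Idh2, the NADP-dependent one, fell by 2.17 and 3.31.

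Between genotypes 14.8% of all genes were called without and 13.3% with stimulation. Of 42 assembly factors 2 were higher and 1 lower without stimulation, and 4 were lower with it. No nuclear ATP synthase gene was called without or with stimulation. Lyrm7 (0.62 ± 0.15, edgeR adjusted p = 0.0248) and Pet117 (1.48 ± 0.49, adjusted p = 0.0795), assembly factors of complexes III and IV, were higher in unstimulated CtslΔTEC cells. Cox10, which makes heme O for complex IV, was lower in CtslΔTEC cells both without (-0.57 ± 0.10, edgeR adjusted p = 0.0032) and with stimulation (-0.51 ± 0.14, adjusted p = 0.0324). Ndufaf7, a methyltransferase needed to assemble complex I, was lower with stimulation (-0.94 ± 0.15, adjusted p = 0.00174). Of 18 genes of the tricarboxylic acid cycle 1 was called without and 2 with stimulation, all lower. Idh2 was lower with stimulation (-1.22 ± 0.17), and Mdh2, the mitochondrial malate dehydrogenase, was lower without it (-0.32 ± 0.07). Of 24 genes of mitochondrial DNA transcription and RNA handling 1 was called without and 1 with stimulation. Rexo2, an RNA exonuclease, was lower without stimulation (-0.44 ± 0.08), and Polg, the mitochondrial DNA polymerase, was higher with it (0.39 ± 0.11, adjusted p = 0.0453). Of the regulators none of 11 was called without and 1 of 13 with stimulation (Tfeb, -1.13 ± 0.36, adjusted p = 0.0668).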

How the data were processed

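Per the labels each library is RNA from M2 CD4SP thymocytes of 1 mouse, and mouse numbers come from the titles. The authors quantified reads with kallisto 0.48 (version per the submitters' processing notes) against Ensembl release 106 and deposited estimated counts and TPM for each transcript, with effective lengths. Of 117497 transcripts, 116397 were paired with a gene through GENCODE M21 (GRCm38), and the other 1100 took at most 0.461% of a library's counts. Counts were summed to genes and rounded, and TPM was summed for levels and shares. Genes were compared with edgeR 4.0.16 in R 4.3.3, by the quasi-likelihood test with TMM scaling, filterByExpr, Benjamini-Hochberg adjustment over all genes tested and a threshold of 0.1. The study used DESeq2. The 9 unstimulated libraries gave the unstimulated comparison and a 4-group model of 13 libraries the others. Standard errors come from the fold change and the F statistic, and 95% intervals are approximate. The p-values measure the spread between single mice. Dates are those of the file names. DESeq2 1.42.0, other scalings and filters, a date or Y-linked covariate and leaving out each mouse were alternatives. Copies were transcripts of other genes with at least 95% identity over 80% of the shorter one (blastn 2.17.0). On simulated data with 200 genes changed 2-fold, the test recovered 148 in the unstimulated and 107 in the stimulated comparison.

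The topic, the rule for members (symbols alone) and the lists were chosen with earlier results of these data known. Members named were the 13 mitochondrial genes, complex II, Cyc1, Cycs, the tissue paralogues and, per comparison and direction, up to 10 called members with the largest change. Motifs, Uqcr10, Uqcrh, Uqcrc1, Uqcrfs1, Ndufb10, Ndufb11, Gabpa, Nrf1, Tfam and Polrmt were added after their values were seen. Approximate intervals include the spread between mice, and the floor of 3 counts covers counting error only. Of the 69 nuclear members, 1 is included in the counts but is neither drawn nor reported here.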

Additional observations from a re-analysis of the deposited data

Results flagged for a closer look

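Of 74 sets of unstimulated libraries examined (1 value in 1 genotype each), 8 held 1 mouse far from the others by Dixon's test, where chance gives about 3.7. In unstimulated WT cells mouse 4, the only control with the earlier date in the file names, was high for Cox7c (75.8 CPM, others 41.8 to 47.3), Ndufa10 (78.9 CPM, others 67.6 to 68.7) and Uqcrq (50.001 CPM, others 31.4 to 32.7). WT mouse 2 was high for mt-Nd1 (2098 CPM, others 1623 to 1696) and mt-Nd2 (1399 CPM, others 1026 to 1087), and WT mouse 3 low for Cycs (30.5 CPM, others 33.5 to 34.1). In unstimulated CtslΔTEC cells mouse 2 was low for the share of TPM on nuclear members (0.688%, others 0.793% to 0.824%), and mouse 1 was high for Cyc1 (95.6 CPM, others 79.0 to 83.2). The causes were not tested.

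Counts on near-identical copies, outside the members, reached 62.3% of the sum of gene and copies for Ndufb4, 48.4% for mt-Nd3 and 32.9% for Cycs.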

How the results depend on the processing

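The numbers of members called were recomputed under each alternative, and the total calls in the 2 responses stayed within 1.5 times those given above except without stimulated WT mouse 5. Leaving out each mouse in turn gave 28 to 48 calls for the response in WT (44 with all mice), 43 to 58 for the response in CtslΔTEC cells (57), 0 to 1 between unstimulated genotypes (0), 0 to 10 between stimulated genotypes (2) and 0 to 2 for the interaction (0). Between unstimulated genotypes, transcript length as an offset and the date as a factor gave 3 calls each. Between stimulated genotypes (0 higher and 2 lower) there were 4 calls with no count filter (1 higher, 3 lower), 5 with DESeq2 (2 higher, 3 lower), 1 from the stimulated libraries alone (higher), 2 with upper-quartile scaling (both higher), 3 with at least 10 counts in every library (2 higher, 1 lower) and 0 at a threshold of 0.05, and the Y-linked covariate gave 1 call for the interaction (mt-Nd2, -1.07). Animals were not treated as paired by mouse number. The correlations of deviations of the 4 shared numbers ran from -0.16 to 0.35, and 4 values from small groups cannot exclude a pairing. For number 2 alone the same-numbered mouse was the best partner. With the replicate block no member was called (0, as without it, also on mice 1 to 4 alone, a fit added after seeing the data). With library totals alone the nuclear median of the CtslΔTEC response was 0.24, and with the Y-linked covariate the mitochondrial median of the interaction was -0.56. No named call changed direction.

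Shares depend on the measure. As shares of estimated counts, nuclear members took 0.348% in unstimulated WT, 0.340% in unstimulated CtslΔTEC, 0.397% in stimulated WT and 0.378% in stimulated CtslΔTEC cells, and mitochondrial members 2.98%, 3.12%, 2.79% and 2.43%. With copies added the nuclear share of stimulated CtslΔTEC cells was 0.937%. Without each mouse, nuclear shares of TPM ran from 0.776% to 0.832%, 0.768% to 0.802%, 0.884% to 1.02% and 0.903% to 0.922%, and mitochondrial shares from 5.75% to 6.33%, 6.28% to 6.83%, 5.20% to 6.23% and 4.72% to 5.41%, in the same order. The stimulated comparisons rest on 2 mice per genotype, with as few as 8085463 counts in a library, and the part of depth was not tested.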
